A study of Mus musculus with 5 samples.

Results

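The 8 genes Tnc, Postn, Cthrc1, Fn1, Thbs1, Thbs2, Ctgf and Cyr61 encode secreted proteins of the matrix that is laid down in wounds. They were taken as a list, not by a cut on their values, from the 18132 genes in the count tables, and all 8 were found. The list was chosen with earlier results of these data known. Single cells came from the tibialis anterior, a muscle of the lower leg, of C57Bl/6 mice, were sorted as live cells with propidium iodide and calcein, and were counted with droplet libraries that tag the 3' end of each captured transcript with a unique molecular identifier (UMI). Per the labels, which do not say how many animals were used, uninjured muscle (day 0) was female and 4 months old, day 2 after notexin female and 7 months old, day 5 female and 4 months old, and day 7 male and 4 months old. Notexin is a snake venom phospholipase that destroys muscle fibres. Each day is 1 count matrix, in which the 2 samples of day 0 cannot be told apart. No difference between days could therefore be tested, and day cannot be told apart from animal or library, nor at day 2 from age or at day 7 from sex.

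Matricellular proteins are secreted into the matrix but act mainly as signals: they bind integrins, syndecans, CD36 and CD47 on cells, and growth factors held in the matrix, and many are made for a short time after injury. In muscle, the main source of interstitial matrix is the fibro/adipogenic progenitor (FAP), a mesenchymal cell that lies between the fibres. Tenascin-C, periostin and CTHRC1 are known as products of activated fibroblasts, fibronectin is a structural protein of the provisional matrix, and CTGF and CYR61 are CCN proteins whose genes are textbook targets of the coactivator YAP and its DNA-binding partner TEAD.

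The matrices held 5176, 4903, 2164 and 5680 labelled cells at days 0, 2, 5 and 7, with medians of 3832.5, 9683, 2018 and 5991 UMIs per cell, and pairs of days shared between 9 and 40 cell barcodes. Cell types are the authors' labels, and the FAP class of day 7 joins the labels FAPs and FAPs (activated). Levels are UMIs of the gene per 1000000 UMIs (cpm) of the summed cells of a label or class. Intervals are 95% intervals of the counts and cover counting error only. The label Platelets of day 0 carried endothelial markers at 7135 cpm against 33.0 cpm for platelet markers, and the label B cells of day 2 carried dendritic markers at 13335 cpm against 1.83 cpm for B cell markers. Neither enters a comparison between days on its own. Both are among the sums that are ordered and correlated at the end, and the second is part of the joint immune class of the plots and a reference for Thbs1 shares. No label for tenocytes, the fibroblasts of tendon, was given at days 2 and 5.

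RefSeq promoter sequences were held for 4 of the 8 members (GRCm38.p6): Tnc, Postn and Thbs2, which stood at least 2-fold above day 0 in FAPs on all 3 injured days, and Cyr61, which stayed within 2-fold. The 250 bases before the start nearest to the annotated gene start are shown for Tnc (chr4:64047016-64047265, minus strand), Postn (chr3:54360857-54361106, plus strand), Thbs2 (chr17:14694263-14694512, minus strand) and Cyr61 (chr3:145649986-145650235, minus strand). They read 5′ to 3′, with capitals marking matches to TATAAA (the TATA box) or CATTCC (the core of the TEAD site), a match on the other strand appearing as its reverse complement.
Tnc: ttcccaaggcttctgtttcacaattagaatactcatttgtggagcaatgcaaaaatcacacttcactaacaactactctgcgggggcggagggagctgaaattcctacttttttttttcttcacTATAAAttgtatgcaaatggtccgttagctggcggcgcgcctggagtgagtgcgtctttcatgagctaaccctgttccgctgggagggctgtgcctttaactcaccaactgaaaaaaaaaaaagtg
Postn: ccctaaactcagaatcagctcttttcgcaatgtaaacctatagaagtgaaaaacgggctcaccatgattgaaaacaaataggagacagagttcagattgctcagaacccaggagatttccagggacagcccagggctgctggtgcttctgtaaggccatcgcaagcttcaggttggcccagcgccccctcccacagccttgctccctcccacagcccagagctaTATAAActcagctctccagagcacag
Thbs2: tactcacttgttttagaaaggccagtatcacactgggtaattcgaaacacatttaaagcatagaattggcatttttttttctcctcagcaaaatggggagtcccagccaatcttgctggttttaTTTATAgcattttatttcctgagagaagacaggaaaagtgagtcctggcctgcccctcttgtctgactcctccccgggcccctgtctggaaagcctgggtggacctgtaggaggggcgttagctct
Cyr61: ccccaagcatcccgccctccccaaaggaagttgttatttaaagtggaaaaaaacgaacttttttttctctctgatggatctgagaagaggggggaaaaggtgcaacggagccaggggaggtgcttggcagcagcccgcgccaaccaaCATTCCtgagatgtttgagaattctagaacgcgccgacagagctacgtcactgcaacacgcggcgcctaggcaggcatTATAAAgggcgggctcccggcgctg
TATAAA was found 26 bases before the start in Postn, 25 in Cyr61, 126 in Tnc and 126, on the other strand, in Thbs2, and 12.4% of the 32851 windows of this length in the table held it on either strand. CATTCC was found in the Cyr61 window, 103 bases before the start, and not in the other three, while 12.6% of all windows held it. TGANTCA, the AP-1 site, was in none of these windows and in 6.75% of all windows. The 3 motifs were searched on both strands, the matches shown do not overlap, and they are matches of letters in the window, not measured binding.

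On GRCm38 (mm10), Tnc spans bases 63959785 to 64047015 of chromosome 4 on the minus strand, Postn 54361109 to 54391037 of chromosome 3 on the plus strand and Cthrc1 39076932 to 39087121 of chromosome 15 on the plus strand. Fn1 spans 71585520 to 71653200 of chromosome 1 on the minus strand, Thbs1 118111876 to 118127133 of chromosome 2 on the plus strand and Thbs2 14665500 to 14694235 of chromosome 17 on the minus strand. Ctgf, now named Ccn2, spans 24595442 to 24598683 of chromosome 10 on the plus strand, and Cyr61, now named Ccn1, spans 145646976 to 145649981 of chromosome 3 on the minus strand. All are protein-coding genes, and none overlapped another annotated gene on its own strand.

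In FAPs, 5 of the 8 members were at least 2-fold higher at day 2 than at day 0, 6 at day 5 and 4 at day 7, and none was at least 2-fold lower on any of these days. Among all genes measured, meaning those with 20 or more UMIs over the compared days, 10.9%, 10.2% and 9.99% were at least 2-fold higher at days 2, 5 and 7, and 14.1%, 10.3% and 10.6% were at least 2-fold lower. The median log2 ratio to day 0 over the 8 members was 1.57, 1.82 and 0.90, beside -0.17, -0.01 and -0.08 over all genes measured. The 3 comparisons share the 3516 FAPs of day 0 and are therefore not independent. Since the members were chosen with earlier results of these data known, the counts beside all genes describe the members and test nothing. The FAP class held 667, 828 and 1889 cells at days 2, 5 and 7, with medians of 12321, 2785 and 7007 UMIs per cell against 4452 at day 0. Its 8 FAP markers summed to 75955 cpm at day 0, 23836 at day 2, 45279 at day 5 and 56587 at day 7.

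Tenascin-C is an extended matrix glycoprotein that loosens cell adhesion. Its gene Tnc stood at 0.979 cpm in FAPs at day 0 (16 UMIs), 99.6 cpm at day 2, 207 cpm at day 5 and 124 cpm at day 7. It was low at day 0 alone, where its interval ran from 0.560 to 1.59 cpm. The log2 ratios to day 0 were 6.67 (5.96 to 7.48), 7.72 (7.01 to 8.54) and 6.98 (6.28 to 7.79).

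Cthrc1, which encodes a secreted protein with a short collagen repeat, stood at 7.04 cpm at day 0, 391 cpm at day 2, 347 cpm at day 5 and 966 cpm at day 7. Its order over time differed from that of Tnc: Cthrc1 was highest at day 7, by a log2 ratio of 1.48 (1.39 to 1.57) over day 5, while Tnc was lower at day 7 than at day 5 by 0.75 on the log2 scale (-0.75, from -0.88 to -0.61). The log2 ratios of Cthrc1 to day 0 were 5.79 (5.53 to 6.08), 5.62 (5.34 to 5.91) and 7.10 (6.84 to 7.38).

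Periostin binds collagen and tenascin-C and aids collagen cross-linking. Summed over FAPs, Postn stood at 107 cpm at day 0 and at 822, 2134 and 3742 cpm at days 2, 5 and 7. Each sum was above that of the day before, with intervals that did not overlap. The log2 ratios to day 0 were 2.94 (2.86 to 3.02), 4.32 (4.24 to 4.39) and 5.13 (5.06 to 5.20). The median of single FAPs was 0 cpm at day 0 and 575, 164 and 2007 cpm at days 2, 5 and 7. This median was thus lower at day 5 than at day 2, and day 5 also had the fewest UMIs per FAP.

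**Figure D1:**
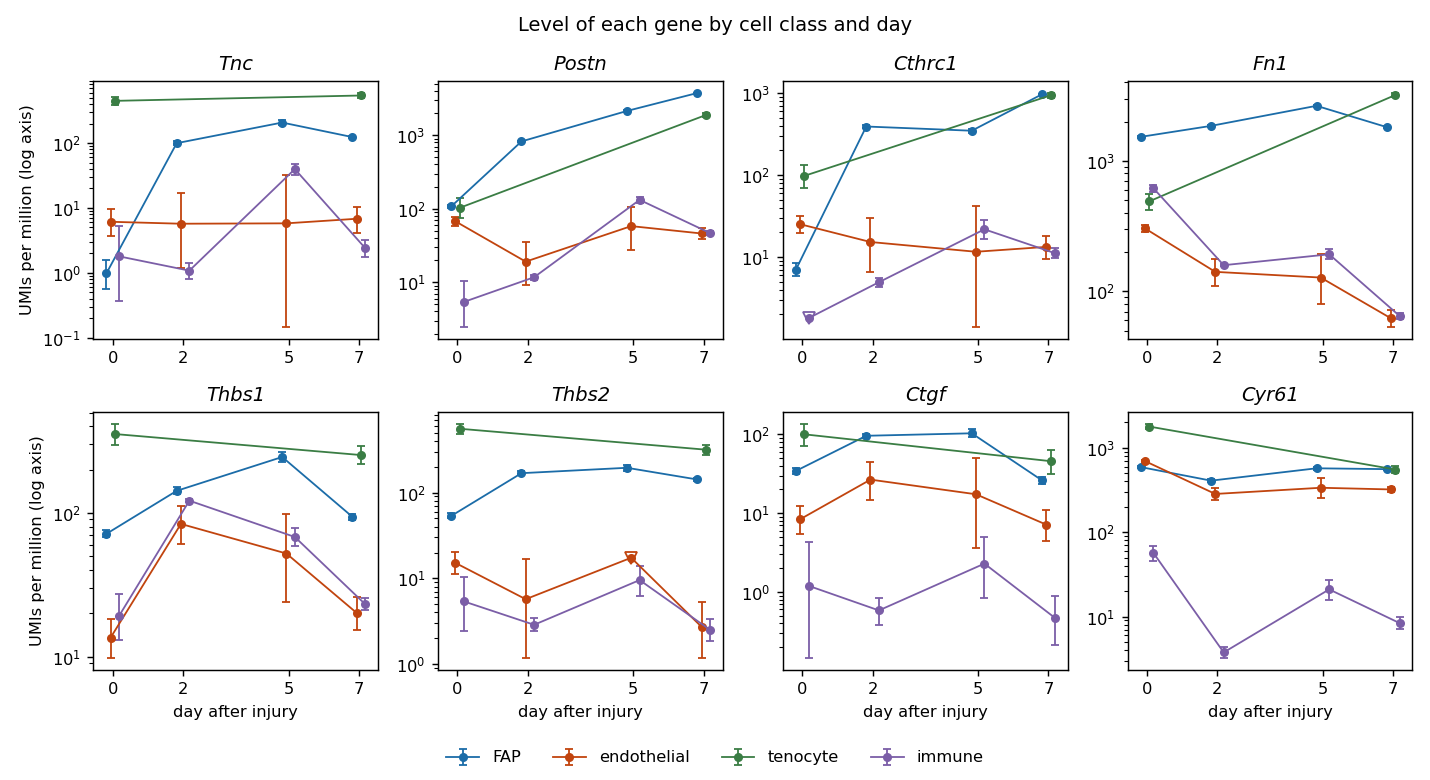
Level of each gene (cpm, log axis) by day after injury in FAPs, endothelial cells, tenocytes and all immune labels together. Points are sums over the cells of a class, bars are exact 95% Poisson intervals of the counts, and an open triangle stands at the level of 3 counts where no UMI was found; in FAPs, Postn stood at 107, 822, 2134 and 3742 cpm at days 0, 2, 5 and 7 and Cyr61 at 591, 408, 572 and 559 cpm.

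Fibronectin, the scaffold on which early matrix assembles, was made by FAPs before injury as well as after. Fn1 stood at 1526, 1853, 2639.8 and 1811 cpm at days 0, 2, 5 and 7. Day 5 was highest, and no day reached 2-fold: the log2 ratios were 0.28 (0.25 to 0.31), 0.79 (0.75 to 0.83) and 0.25 (0.22 to 0.27).

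The thrombospondins differed at day 7. Thbs2, whose product limits vessel growth and clears matrix proteases, stood at 53.4, 168, 194 and 142 cpm in FAPs at days 0, 2, 5 and 7, with log2 ratios of 1.66 (1.54 to 1.78), 1.87 (1.71 to 2.02) and 1.41 (1.30 to 1.53). Thbs1, whose product is released by platelets and can activate latent TGF-beta, stood at 71.5, 142, 245 and 93.8 cpm. Its log2 ratio was 1.00 (0.88 to 1.11) at day 2, a fold of 1.99 that misses the threshold as scaled by total UMIs and passes it, at 1.17, when scaled by the median ratio over all genes. Day 5 gave 1.78 (1.64 to 1.91) and day 7 gave 0.39 (0.28 to 0.51), so that Thbs1 was back within 2-fold of day 0 while Thbs2 was not.

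The 2 CCN genes had different courses. Ctgf, whose product binds TGF-beta and integrins, stood at 34.4, 96.0, 103 and 26.1 cpm in FAPs at days 0, 2, 5 and 7. It was high at days 2 and 5, with log2 ratios of 1.48 (1.33 to 1.64) and 1.59 (1.38 to 1.79), and stood below day 0 at day 7, at -0.40 (-0.59 to -0.21). Between days 5 and 7 alone its log2 ratio was -1.99 (-2.21 to -1.76). Cyr61, whose product binds integrins and promotes adhesion, stood at 591, 408, 572 and 559 cpm, with log2 ratios of -0.53 (-0.59 to -0.48), -0.05 (-0.12 to 0.03) and -0.08 (-0.12 to -0.04), and thus stayed within 2-fold of day 0 on all 3 days.

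**Figure D2:**
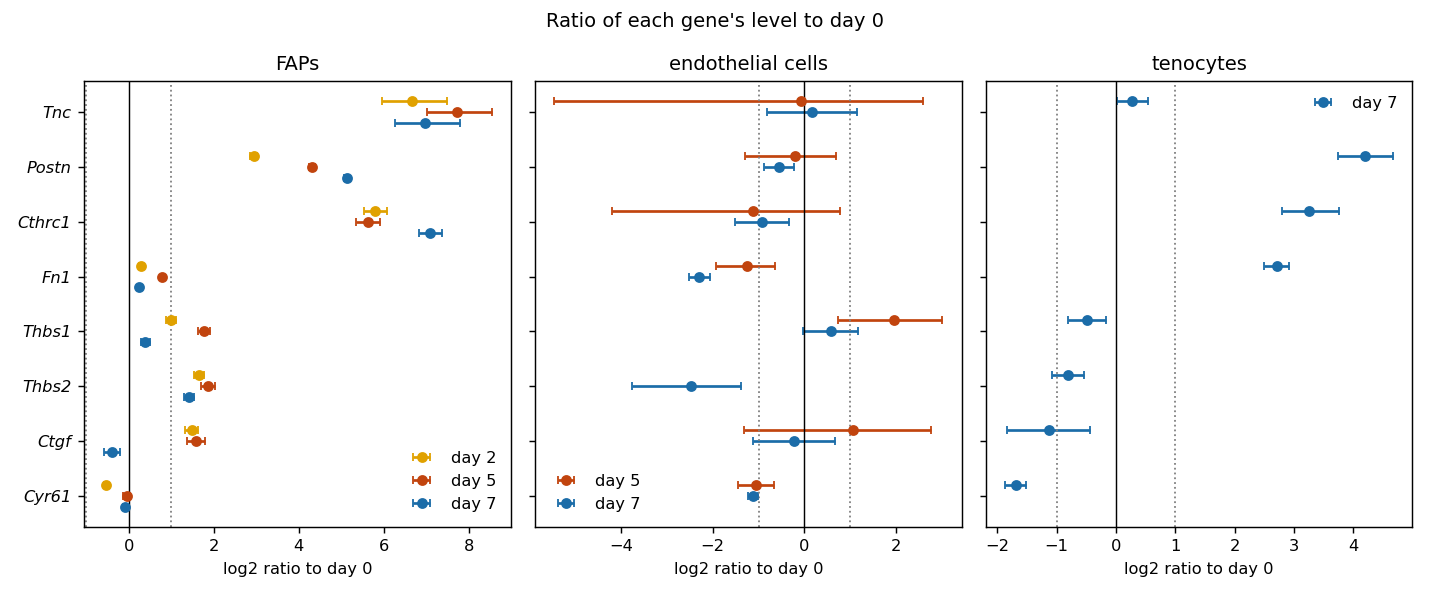
Log2 ratio of each gene's level to day 0 in FAPs (days 2, 5 and 7), endothelial cells (days 5 and 7) and tenocytes (day 7), with exact 95% intervals of the split of the 2 counts. Dotted lines mark 2-fold, and a gene with no UMI on one side is not drawn; in FAPs, Tnc, Postn and Cthrc1 lay at 2.94 or above on all 3 days, and Fn1 and Cyr61 lay between -0.53 and 0.79.

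Sums cannot tell more expressing cells from more RNA per cell. Cells with a UMI were also counted, after each cell was thinned to 1000 UMIs so that depth was equal. A thinned share also depends on the level within each cell, so it cannot separate the 2 either. Postn was found in 5.92% of thinned FAPs at day 0, 43.3% at day 2, 40.2% at day 5 and 66.8% at day 7, and in 12.6%, 89.2%, 50.4% and 83.3% before thinning. In anti-inflammatory macrophages of day 7, a cell type that should lack these transcripts, the thinned share with Postn was 3.21% (21.9% before thinning, at a median of 6421 UMIs against 7007 in FAPs). Cthrc1 was found in 0.654%, 24.3%, 15.1% and 43.3% of thinned FAPs at days 0, 2, 5 and 7, against 0.663% of those macrophages. Unthinned, the shares of Cthrc1 were 2.39%, 65.5%, 31.5% and 75.4%, against 6.94%. Within day 0, the label Immune (297 cells, median 4275 UMIs against 4452 in FAPs) had Postn at 5.39 cpm, against 107 cpm in FAPs, and no UMI of Cthrc1, where 3 counts would be 1.80 cpm, against 7.04 cpm in FAPs.

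Few FAPs held most of the Tnc UMIs. The thinned share with Tnc was 0.0853%, 5.40%, 5.68% and 6.30% of FAPs at days 0, 2, 5 and 7, against 0.102% of the day 7 macrophages, and the unthinned share was 0.341%, 25.6%, 11.6% and 19.2%, against 1.22%. The day 0 share was also no higher than that of the label Immune of day 0, which was 0.337% thinned and 1.01% unthinned, from 3 UMIs. The decile of FAPs with the most Tnc held 87.1% of its UMIs at day 2, 97.8% at day 5 and 89.1% at day 7. For Postn the top decile held 41.0%, 62.4% and 42.5%, and for Fn1 31.0%, 37.1% and 33.7%. At day 5, 1 cell alone held 142 of the 604 Tnc UMIs, and the log2 ratio to day 0 was 7.53 when the top cell of each day was left out. Fn1 had a thinned share of 56.2% at day 0 and of 71.5%, 75.7% and 70.7% at days 2, 5 and 7.

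Markers of tenocytes moved with Tnc within the FAP class. The 8 tenocyte markers, among them the matricellular genes Thbs4 and Comp, summed to 166, 453, 1333 and 1148 cpm in FAPs at days 0, 2, 5 and 7, against 31408 cpm in tenocytes at day 0 and 21460 cpm at day 7, and none of the 8 was at 0. FAPs with a UMI of Tnmd, Scx, Mkx, Kera or Cilp2 made up 6.31%, 9.30%, 4.83% and 10.4% of the class, counted without thinning. They held 25% of its Tnc UMIs at day 0 (4 UMIs) and 22.0%, 45.5% and 18.4% at days 2, 5 and 7. At day 5, Tnc stood at 1219 cpm in the 40 cells with such a UMI (275 Tnc UMIs) and at 122 cpm in the other 788 (329 Tnc UMIs). The first had a median of 4718 UMIs per cell and the others 2715. A single FAP of day 5 held 142 Tnc UMIs, and which group it belonged to is not given here. Without the cells with such a UMI, the log2 ratios of Tnc to day 0 were 6.81, 7.28 and 7.19, beside 6.67, 7.72 and 6.98 in the whole class. Leaving them out also lowered the day 0 level, from 0.979 to 0.789 cpm (12 UMIs). A cell without a UMI of these markers can still be like a tenocyte, and the part of such cells in Tnc was not tested. Macrophage markers also differed between days in FAPs, at 48.6, 2279, 233 and 1093 cpm, and with cells carrying Ptprc, Pecam1 or Cdh5 left out the ratios of Tnc were 6.78, 7.36 and 7.08.

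More members were detected per FAP after injury. A FAP thinned to 1000 UMIs held UMIs of 1.08 members on average at day 0, 2.05 at day 2, 2.14 at day 5 and 2.41 at day 7, and the share with at least 4 of the 8 was 0.256%, 13.2%, 14.3% and 19.8%. At day 7, Postn was found in 95.8% of the thinned FAPs with Tnc and in 64.8% of the rest. Cthrc1 was found in 72.3% of those with Tnc and 41.4% of the rest, and the log-scale correlation of Postn and Cthrc1 over these cells was r = 0.43 at a shared depth. Thbs1 went the other way, with 5.88% of cells with Tnc and 9.49% of the rest, the first being 7 cells. The class of day 7 joins the label FAPs, with Tnc at 144 cpm, and the label FAPs (activated), with Tnc at 3.79 cpm. Detection was not counted within each label, so the part of the labels in these shares and in r was not tested. At day 2, Postn was found in 47.2% of the FAPs with Tnc and 43.1% of the rest.

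The 2 FAP labels of day 7 differed in these genes, and the label FAPs (activated), with 352 cells against 1537, had the lower levels of the activated-fibroblast genes. Tnc stood at 3.79 cpm in FAPs (activated) and 144 cpm in FAPs, Postn at 442 and 4308 cpm, and Cthrc1 at 349 and 1072 cpm. The log2 ratios of FAPs (activated) to FAPs were -5.25 (-6.46 to -4.27), -3.29 (-3.38 to -3.19) and -1.62 (-1.73 to -1.51). Fn1 was the reverse, at 2312 cpm in FAPs (activated) against 1725 cpm (log2 ratio 0.42, 0.38 to 0.47). Thbs1 (-0.93), Ctgf (-0.79), Thbs2 (-0.56) and Cyr61 (-0.15) were lower in FAPs (activated) by less than 2-fold on the log2 scale. Since the labels may have been drawn with these genes among others, the ratios describe the labels and test nothing. Against FAPs of day 0, FAPs (activated) had Cthrc1 at a log2 ratio of 5.63 (5.35 to 5.93), Postn at 2.04 (1.93 to 2.16), Tnc at 1.95 (0.52 to 3.26, from 8 UMIs) and Ctgf at -1.10 (-1.64 to -0.60). The tenocyte markers summed to 309 cpm in FAPs (activated) and 1292 cpm in FAPs, and the part they played in the difference of Tnc was not tested.

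Tenocytes held most Tnc of the uninjured muscle. The 70 tenocytes of day 0 carried 79.6% of the Tnc UMIs of all labelled cells, and the 3516 FAPs 6.96%. At day 2, with no tenocyte label, FAPs carried 93.5%, and at day 7 the label FAPs carried 72.6% and the 88 tenocytes 16.4%. These shares depend on how many cells of each type were captured. Cthrc1 of day 0 was split between FAPs (48.1%), endothelial cells (32.6%, of which 50 of 78 UMIs were in 1 cell) and tenocytes (16.7%).

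**Figure D3:**
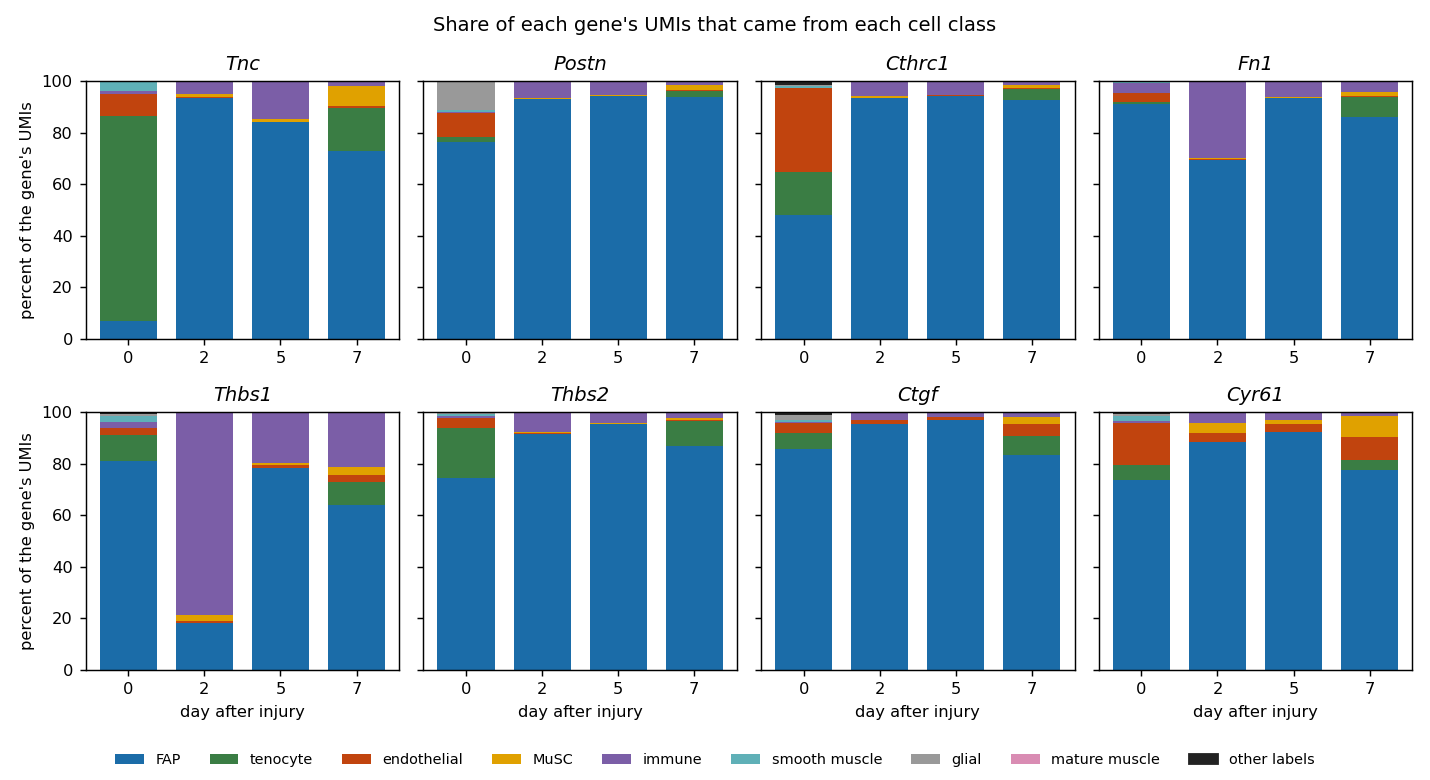
Share of each gene's UMIs (percent of those in labelled cells) that came from each class of cells, one stacked bar per day. FAPs hold the largest piece for most genes and days, with tenocytes at 79.6% for Tnc at day 0 and immune labels holding most of Thbs1 at day 2, where the label Immune alone held 76.0%.

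Relative to all UMIs, uninjured tenocytes stood above FAPs in most of the 8 genes. The log2 ratio of tenocytes to FAPs at day 0 was 8.83 (8.10 to 9.67) for Tnc, 3.80 (3.24 to 4.33) for Cthrc1, 3.38 (3.16 to 3.59) for Thbs2, 2.31 (2.05 to 2.56) for Thbs1, 1.60 (1.48 to 1.70) for Cyr61 and 1.54 (1.05 to 2.00) for Ctgf. Fn1 was lower in tenocytes (-1.64, -1.85 to -1.44), and the interval of Postn held 0 (-0.06, -0.54 to 0.38). At day 7 the ratio was 2.13 (1.97 to 2.29) for Tnc and -0.05 (-0.16 to 0.06) for Cthrc1, and Postn stood at 1875 cpm in tenocytes against 3742 cpm in FAPs.

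Within tenocytes, Postn, Cthrc1 and Fn1 were higher at day 7 than at day 0, and Cyr61 and Ctgf were lower. Of the 8 members, 3 were at least 2-fold higher at day 7, against 12.9% of genes measured, and 2 were at least 2-fold lower, against 7.8%. Postn stood at 103 cpm at day 0 and 1875 cpm at day 7 (log2 ratio 4.19, 3.75 to 4.67), and 31 of its 42 UMIs at day 0 lay in 1 cell, so that the ratio was 5.95 without the top cells. Cthrc1 stood at 97.7 and 936 cpm (3.26, 2.80 to 3.76), and Fn1 at 489 and 3193 cpm (2.71, 2.50 to 2.92). Tnc, the gene that set tenocytes apart at day 0, stood at 447 and 541 cpm (0.27, 0.02 to 0.53). Cyr61 was lower at day 7, at 553 cpm against 1786 cpm (-1.69, -1.87 to -1.52), and Ctgf at 45.7 cpm against 100.2 cpm (-1.13, -1.83 to -0.44), the latter from 34 and 41 UMIs. Thbs1 (-0.49, -0.81 to -0.16) and Thbs2 (-0.81, -1.08 to -0.54) stayed within 2-fold. The median over all genes measured was 0.14 in this comparison. FAP markers in the tenocyte label summed to 74281 cpm at day 0 and 33044 cpm at day 7, macrophage markers to 303 and 1412 cpm, and their part in these ratios was not tested.

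Endothelial cells, which line the vessels, had their highest Cyr61 level before injury. It stood at 696 cpm at day 0 (1089 cells), 284 cpm at day 2 (58 cells), 336 cpm at day 5 (100 cells) and 321 cpm at day 7 (520 cells). The log2 ratio of day 5 to day 0 was -1.05 (-1.45 to -0.67) and that of day 7 was -1.12 (-1.23 to -1.01). Fn1 stood at 304, 141, 127 and 62.0 cpm, with log2 ratios of -1.25 (-1.93 to -0.64) and -2.29 (-2.53 to -2.06) at days 5 and 7. FAP markers summed to 8877 cpm in the endothelial label at day 0 and to 314, 1205 and 807 cpm at days 2, 5 and 7. With cells carrying Ptprc or Pdgfra left out, the ratios of Cyr61 were -1.13 and -1.09 and those of Fn1 -0.59 and -1.71.

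Thbs1 in endothelial cells stood at 13.5 cpm at day 0, 83.8 cpm at day 2, 52.2 cpm at day 5 and 20.1 cpm at day 7, from 42, 44, 9 and 59 UMIs. It was highest at day 2, where macrophage markers in the label also summed to 8744 cpm against 82.8 cpm at day 0. Of the 8 members, 2 were at least 2-fold higher at day 5 (Thbs1 and Ctgf), against 11.4% of genes measured, and 3 at least 2-fold lower (Fn1, Cyr61 and Cthrc1), against 15.6%. At day 7 none was at least 2-fold higher, against 7.08%, and 3 were at least 2-fold lower (Fn1, Cyr61 and Thbs2), against 10%. The count of higher members at day 5 was 0 with cells thinned and 1 without the top cells, and that at day 7 was 4 without the top 5% of cells by UMIs, 3 as a mean over cells and 2 without cells carrying Ptprc or Pdgfra. Several of these rest on few UMIs or 1 cell. Ctgf had 3 UMIs at day 5, and its log2 ratio of 1.05 was -0.41 without the top cells. Thbs2 stood at 15.1 cpm at day 0, had no UMI at day 5, where 3 counts, the limit used for a count of 0, would be 17.4 cpm, and stood at 2.73 cpm at day 7 (-2.47, -3.77 to -1.38). FAP markers in the label were likewise lower at day 7 than at day 0, and their part in the Thbs2 ratio was not tested. At day 0, 121 of the 209 Postn UMIs and 13 of the 19 Tnc UMIs lay in 1 cell, and without the top cells of both days the ratio of Postn at day 7 was 0.37 in place of -0.55. With cells carrying Ptprc or Pdgfra left out it was 2.12 at day 7 and 2.10 at day 5, so that the direction of Postn in endothelial cells depended on a few cells.

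Thbs1 stood in immune cells of day 2 at a level near that of FAPs. At day 2 it stood at 136 cpm in the label Immune (5440 UMIs in 3405 cells) and at 142 cpm in FAPs, 95.5% of the FAP level, with a log2 ratio of -0.07 (-0.15 to 0.02). Fn1 in the label Immune stood at 8.70% of its FAP level, and the other 6 members between 0.651% and 1.84%. The label carried macrophage markers at 33075 cpm, neutrophil markers at 64.5 cpm and FAP markers at 503 cpm. Thbs1 was found in 12.7% of its thinned cells and 11.2% of thinned FAPs (46.8% and 55.5% before thinning, at medians of 9665 and 12321 UMIs), against 1.78% under the label B cells, at a median of 9276 UMIs. The label Macrophages/APCs of the same day had Thbs1 at 38.6 cpm. Through the number of immune cells, the label Immune held 76.0% of all Thbs1 UMIs at day 2 and FAPs 18.3%.

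Among macrophages Thbs1 was lower later. Anti-inflammatory macrophages had 115 cpm at day 5 and 29.0 cpm at day 7 (log2 ratio -1.99, -2.26 to -1.72), which was 47.0% and 30.9% of the FAP level of the day. Fn1 in the same label stood at 255 and 68.5 cpm (-1.89, -2.07 to -1.71). Against the label Immune of day 0, the same label at day 2 had Thbs1 at 136 cpm against 19.2 cpm (2.83, 2.33 to 3.38), Fn1 at 161 against 617 cpm (-1.94, -2.03 to -1.84) and Cyr61 at 4.08 against 56.9 cpm (-3.80, -4.18 to -3.42). FAP markers summed to 6168 cpm and neutrophil markers to 4516 cpm in the label at day 0, so that it did not hold the same cells on both days, and the part of this in the ratios was not tested.

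**Figure D4:**
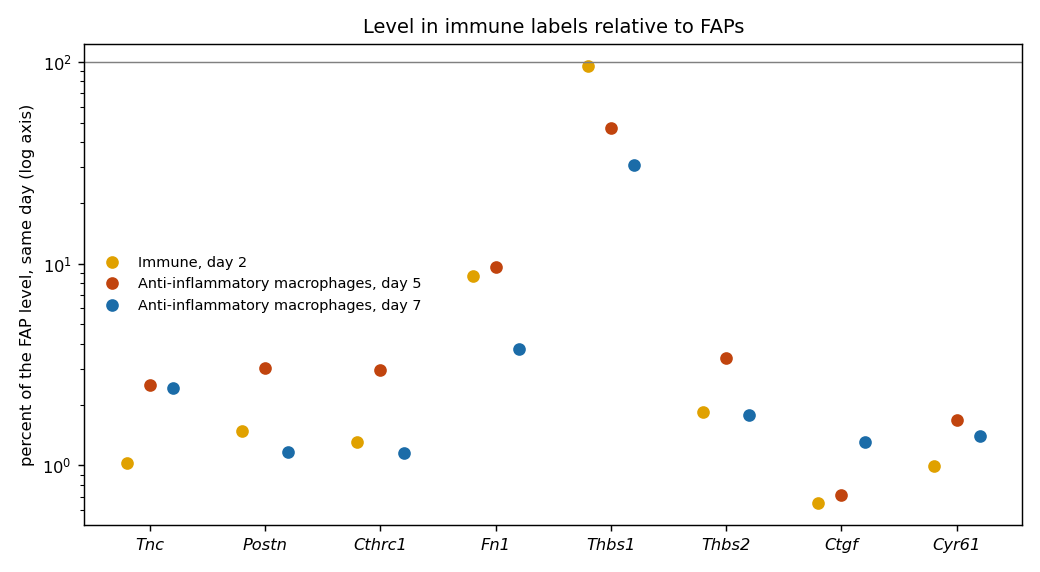
Level of each gene in immune labels as a percent of its level in FAPs of the same day (log axis), for the label Immune at day 2 and Anti-inflammatory macrophages at days 5 and 7. Thbs1 stands at 95.5%, 47.0% and 30.9%, and at day 2 the other genes lie at 8.70% or below.

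Further labels also held members, of which examples follow. MuSCs and progenitors, the muscle stem cell label, had Postn at 386 cpm, Cyr61 at 295 cpm and Fn1 at 175 cpm at day 7. Tnc stood there at 69.3 cpm (194 UMIs, 7.94% of the Tnc of the day) and Cthrc1 at 66.4 cpm. FAP markers in that label summed to 2940 cpm, and their part in these levels was not tested. The label Neural/Glial/Schwann cells of day 0 had Postn at 839 cpm (261 UMIs in 71 cells), above the 107 cpm of FAPs, and carried glial markers at 3943 cpm beside mature muscle markers at 49800.3 cpm. Smooth muscle cells of day 0 had Cyr61 at 829 cpm and Thbs1 at 126 cpm. At day 5, 65 of the 95 Tnc UMIs of the label Macrophages/APCs/T-cells lay in 1 cell.

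The levels of each gene were ordered over the 30 label and day sums with at least 40 cells. Tnc was highest in tenocytes of day 7, then tenocytes of day 0 and FAPs of day 5. Postn was highest in the label FAPs of day 7, then FAPs of day 5 and tenocytes of day 7. Cthrc1 was highest in the label FAPs of day 7 and then tenocytes of day 7, Fn1 in tenocytes of day 7 and then FAPs of day 5, and Thbs2 in tenocytes of day 0 and then of day 7. Thbs1 was highest in tenocytes of day 0, followed by tenocytes of day 7 and FAPs of day 5, which did not differ beyond their intervals. Ctgf in FAPs of day 5, tenocytes of day 0 and FAPs of day 2 did not differ beyond its intervals either. Cyr61 was highest in tenocytes, then smooth muscle cells, then endothelial cells, all of day 0. Of the 29 pairs of neighbours in each order, the interval of the log2 ratio held 0 for 24 pairs in Tnc, 21 in Postn, 22 in Cthrc1, 18 in Fn1, 27 in Thbs1, 23 in Thbs2, 26 in Ctgf and 22 in Cyr61.

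Over these 30 sums, the genes with the pattern most like each member were named by Pearson's r of log2(cpm + 10), among 4357 genes that reached 100 cpm in at least 1 sum. The sums share libraries and cell types and differ in depth, so that r is a description. Tnc was most like Col12a1 (0.91), Wisp1 (0.87) and Lox (0.87), Postn like Col3a1 (0.90), Col5a1 (0.89) and Col6a3 (0.89), and Cthrc1 like Lox (0.90), C1qtnf6 (0.90) and Cdh11 (0.90). Fn1 was most like Plxdc2 (0.90), Vkorc1 (0.89) and Clmp (0.89), and Thbs2 like Loxl3 (0.96), Col16a1 (0.95) and Tmem45a (0.95). Ctgf was most like Fkbp9 (0.89), Crtap (0.87) and Fbln2 (0.87), and Cyr61 like Pkd2 (0.97), Mxra7 (0.96) and Prkcdbp (0.95). Thbs1 had the lowest values, with Emp1 (0.83), Zfhx3 (0.81) and Ckap4 (0.80). Among the members themselves, r was highest for Fn1 and Thbs2 (0.82), Postn and Cthrc1 (0.81) and Ctgf and Cyr61 (0.81), and lowest for Postn and Thbs1 (0.39). With sums of at least 100 cells, 19 in all, 4 of the 24 named genes remained among the 3 most like, so the names depend on the small labels.

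Other matricellular genes in FAPs went both ways. Of a list of 28, 27 were measured at day 2, with 8 at least 2-fold higher and 8 lower, 25 at day 5 with 7 and 2, and 26 at day 7 with 9 and 5, and the median log2 ratios were -0.25, 0.58 and 0.24. The shares of all genes measured were 10.9%, 10.2% and 9.99% higher and 14.1%, 10.3% and 10.6% lower. Spp1 (osteopontin) stood at 6.86 at day 2 and 5.00 at day 7 on the log2 scale. Macrophage markers in FAPs were also highest at days 2 and 7, as given above, and their part in the Spp1 ratios was not tested. Angptl4, a lipoprotein lipase inhibitor, stood at 5.22 at day 2 and 3.66 at day 5. Thrombospondin 4 (Thbs4), also a tenocyte marker, stood at 2.45, 4.29 and 4.28, and the CCN gene Wisp1 at 3.80, 3.62 and 5.07. Tgfbi (-2.08, -0.75 and -1.01), the tenascin gene Tnxb (-1.73, 0.15 and -0.84) and the CCN gene Nov (-1.64, 0.66 and -1.74) were lower at days 2 and 7. Thus relatives of the members within the tenascin and CCN families did not share one direction, and these ratios kept their sign at days 2 and 7 relative to the all-gene medians of -0.17 and -0.08.

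Most receptors of the members were within 2-fold of day 0 in FAPs. On each day a larger share of them than of all genes was higher, and at day 7 a larger share was also lower. Of 19 genes, all measured, 4, 7 and 4 were at least 2-fold higher at days 2, 5 and 7, and 2, 1 and 3 lower, with medians of -0.10, 0.61 and 0.06. Over all genes measured, 10.9%, 10.2% and 9.99% were higher and 14.1%, 10.3% and 10.6% lower, with medians of -0.17, -0.01 and -0.08. Cd44, which binds hyaluronan and osteopontin, stood at log2 ratios of 1.65, 2.07 and 0.68, and syndecan 1 (Sdc1) at 2.56 at day 7. Cd47, a thrombospondin receptor, stood at -0.92, -0.66 and -0.72, and syndecan 4 (Sdc4) at -1.06 at day 2 and -1.21 at day 7.

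The lists of genes of pathways that act on these members did not share one direction in FAPs. At day 2, all calls among SRF targets and contractile genes were higher, and all calls among immediate early genes were lower. Beside the counts below, 10.9%, 10.2% and 9.99% of all genes measured were at least 2-fold higher at days 2, 5 and 7, and 14.1%, 10.3% and 10.6% lower. The median log2 ratios over all genes measured were -0.17, -0.01 and -0.08. Of 16 TGF-beta signal genes, 1, 3 and 2 were at least 2-fold higher and 5, 0 and 3 lower at days 2, 5 and 7. Their medians were -0.34, 0.21 and -0.35. Ltbp4, a binder of latent TGF-beta, stood at -3.22, -0.58 and -1.99, and Tgfb3 at 0.97 at day 2 and 1.06 at day 7. Of 16 YAP and TEAD genes and other targets, 15 were measured, with 2, 0 and 1 higher and 3, 1 and 2 lower, and medians of -0.41, 0.49 and -0.10. Axl, a receptor kinase of that list, stood at -1.12, -0.25 and -0.86. Of 14 SRF targets and contractile genes, 13 were measured, with 4, 1 and 3 higher and 0, 1 and 0 lower, and medians of 0.40, 0.18 and 0.05. Smooth muscle actin (Acta2), of this list, stood at 7.96 cpm at day 0, 96.5 cpm at day 2 and 54.0 cpm at day 7. Of 16 immediate early genes, which tissue digestion can also induce, 0, 1 and 0 were higher and 8, 1 and 1 lower, with medians of -0.99, -0.18 and -0.55. Klf4 stood at -1.98 at day 2 and -0.98 at day 7, and Egr1 at -0.68 at day 2 and 0.87 at day 5.

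Immediate early genes were counted in the other classes too, since Cyr61 is itself known as one. In endothelial cells, 6 of 16 were at least 2-fold lower at day 5, against 15.6% of genes measured, and 14 of 16 at day 7, against 10%. The median at day 7 was -1.42 beside the all-gene median of -0.11. None was higher at day 5, against 11.4% of genes measured, or at day 7, against 7.08%. In tenocytes at day 7, 4 of 16 were at least 2-fold lower, against 7.8% of genes measured, with a median of -0.83. None was higher there, against 12.9%. Cyr61 stood at -1.12 in these endothelial cells and -1.69 in these tenocytes, and in FAPs, where 8, 1 and 1 of the 16 were lower at days 2, 5 and 7, at -0.53, -0.05 and -0.08. Whether handling of the tissue played a part in these levels was not tested.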

How the data were processed

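The 5 samples are 10x 3' v2 libraries, of which 2 are of day 0 and are held in 1 matrix. Per the submitters' processing notes, Cell Ranger 2, Seurat 2.3.4, R 3.6.2 and mm10 were used, with no role given for each. Raw files deposited by the authors give whole UMI counts, by gene symbol and barcode. Their normalized files, also deposited, are on a natural log scale, ln(1 + 10000 × count / total of the cell), which the raw counts matched with a largest gap of 5.33e-15. Metadata deposited with them give a mitochondrial fraction and a cell type label for each cell. The injury column of the metadata reads day 0 in all 4 tables, so GEO's labels gave the day; 12 metadata columns were not used. Whether doublets were removed is not given in the sources used here, no caller was run, and alternatives left out cells with high totals or markers of another class.

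Counts were summed per label and day, and per class of labels, and divided by all UMIs of those cells (5986701 to 57723171 UMIs per day). Barcodes without a label (14, 21, 13 and 9) were left out. Ratios carry 95% Clopper-Pearson intervals of the split of 2 counts (scipy 1.17.1), and levels exact Poisson intervals. A class needed 40 cells, a measured gene 20 UMIs over both sides, and a call 2-fold; a count of 0 was set to 3. Cells were thinned with seed 1. With 1 matrix per day no test between days was made. On simulated counts for FAPs of day 2 against day 0 (12660 genes, 200 of them changed), 99.5% of the changed genes were called in the right direction and 0.867% of the others were called. The changed genes were given log2 changes of 2 or 3 in either direction, all beyond the 2-fold call. The counts were Poisson draws without clumping of UMIs in few cells, so the simulation cannot show how clumping or differences between animals affect the calls.

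The members and lists were chosen with earlier results of these data known. All 8 members are described. Of each list in FAPs the text gives counts, the median and, of the 2 largest and 2 smallest ratios among genes that reach 50 cpm and of 8 direct relatives of the members, the examples named. Spp1 is on the list of other matricellular genes only. Per member, the 3 genes with the highest r are named. Promoters and gene positions come from RefSeq and GENCODE tables of GRCm38, in which 4 and 8 of the 8 members were matched by symbol.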

Additional observations from a re-analysis of the deposited data

Results flagged for a closer look

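Between day 0 and day 7, Fn1 was higher in tenocytes (log2 ratio 2.71) and lower in endothelial cells (-2.29), opposite directions in 2 cell types. Thbs2 was higher in FAPs (1.41) and lower in endothelial cells (-2.47), where it had 8 UMIs at day 7. FAP markers in the endothelial label were also lower at day 7 than at day 0, as given above. Their part in the endothelial ratio of Thbs2 was not tested. Neither difference between cell types was tested, since each day is 1 matrix.

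Barcodes without a cell type label entered no comparison and also held the members. Their summed level over the 8 genes was 734 cpm at day 0 (14 barcodes), 930.0 cpm at day 2 (21 barcodes), 5859.8 cpm at day 5 (13 barcodes) and 503 cpm at day 7 (9 barcodes), beside 2080.1, 893, 3387 and 2988 cpm in labelled cells.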

How the results depend on the processing

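No paired analysis was possible because each day is 1 matrix and no replicate number joins the days. The counts of members at least 2-fold higher in FAPs (5, 6 and 4 at days 2, 5 and 7) and tenocytes (3) stayed within 1.5 times under the alternatives on counts, with 6 in FAPs at day 2 under 5 of them, where Thbs1 passed 2-fold. With the authors' normalized values the FAP counts were 2, 1 and 2. A mean of logs per cell gives smaller ratios for genes found in few cells, and the part of this in the lower counts was not tested. Under that setting 9 single ratios stayed within their interval, 37 moved and 1 turned direction. In endothelial cells at day 5 the count of 2 was 0 with cells thinned, 0 with the authors' normalized values and 1 without the 1 cell with the most UMIs of each member. At day 7 the count of 0 was 4 without the top 5% of cells by UMIs, 2 without cells with a UMI of another class's markers, 3 as a mean over cells, 1 with cells thinned and 1 without the 1 top cell; the cause was not tested. Of 339 single ratios under an alternative, 223 stayed within their interval, 113 moved and 3 that had passed 2-fold turned direction, all in endothelial cells at day 5: Cthrc1, from 2 UMIs, from -1.12 to 0.63 without cells with another class's markers and to 0.000307 with the authors' normalized values, and Ctgf, from 3 UMIs, from 1.05 to -0.41 without the top cell. On counts, the ratio of Cyr61 in endothelial cells lay between -1.29 and -0.92 at day 5 and between -1.15 and -1.01 at day 7, and that of Fn1 between -1.43 and -0.16 and between -2.29 and -1.06. Ratios from under 20 UMIs, or with 0 on a side, got no value. Leaving out tenocyte-marker cells or the top cell was chosen after seeing the data. Day 5 endothelial cells held 172583 UMIs, which limits every value there.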
